A study of Mus musculus with 3 samples.

Results

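The genes described here are 10 genes of the response to low oxygen: the oxygen-regulated subunits Hif1a and Epas1, the oxygen sensors Egln1 and Egln3, and the targets Vegfa, Bnip3, Adm, Ankrd37, Pfkfb3 and Slc2a1. They were chosen by gene symbol, with earlier results of these data known. All 10 were found among the 23361 genes of the deposited tables, with the status OK in each of the 3 libraries. The libraries were made from livers of C57BL/6J mice aged 8 to 10 weeks and labelled male, fasted for 12 h and operated on under chloral hydrate anesthesia. In the sham sample the abdomen was opened without occlusion and the liver was taken after 90 min, in the warm ischemia (WI) sample the vessels and bile duct of the left and median lobes were clamped for 90 min, and in the ischemia followed by reperfusion (IR) sample the clamp was then released for 120 min. Each group had 1 library. The sources used here do not say whether it held RNA of 1 mouse or a pool. No sham liver was taken at the time of the IR liver. The values are FPKM, fragments normalised for transcript length and mapped fragments, which the authors deposited for each gene with 95% bounds. These bounds come from single libraries and do not measure the spread between mice, and with 1 library per group no difference below has a replicate check or a test.

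The libraries stood apart in more than the operation. Xist, the RNA that coats the inactive X chromosome of females, measured 18.9 FPKM in sham liver (7.80 to 29.9), 20.1 FPKM in WI liver (8.52 to 31.8) and 1.29 FPKM in IR liver (0.639 to 1.94), where parentheses here and below hold the 95% bounds. The Y-linked gene Eif2s3y was listed at 0 in the sham and WI samples and at 13.2 (6.94 to 19.5) in the IR sample. Ddx3y, also on the Y chromosome, measured 0 FPKM in sham liver (0 to 0), 0.00849 FPKM in WI liver (0 to 0.0268) and 8.58 FPKM in IR liver (4.61 to 12.6). The sham and WI libraries thus went against their label, male. In every comparison with the IR sample, reperfusion, the later time and this difference in sex-linked RNA cannot be told apart. The sham and WI libraries matched each other in these genes. The hepatocyte markers Ttr, Apoa1, Cyp2e1, Tat and Cps1 were present in all 3 libraries, and Alb was listed at 0 in each with the status HIDATA, which marks a locus with too many fragments to process. At FPKM values up to 0.05, where a gene holds only a few fragments, the most frequent ratio of FPKM between libraries was 1.26 for IR over sham and 0.901 for WI over sham, so that 1 fragment weighed most in the IR sample, the shallowest of the 3.

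Cells sense oxygen through hypoxia-inducible factors (HIF). Prolyl hydroxylases, among them the products of Egln1 and Egln3, use oxygen to mark the HIF alpha subunits for degradation, and when oxygen is short the subunits persist, pair with the Arnt protein and bind the hypoxia response element of their target genes. This control acts mainly on the protein, so that the mRNA of an alpha subunit need not follow its activity. In the liver, whose lobules run from oxygen-rich periportal to oxygen-poor central tissue, such targets raise glucose uptake and glycolysis, remove mitochondria and act on vessels.

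After 90 min of ischemia, none of the 10 genes differed 2-fold from the sham sample. After reperfusion, 5 of them were at least 2-fold higher in the IR sample than in the WI sample: the glucose transporter gene Slc2a1, the glycolytic regulator gene Pfkfb3, Ankrd37, Hif1a and the peptide hormone gene Adm. The other 5, Epas1, Egln1, Egln3, Vegfa and Bnip3, differed by less than 2-fold between IR and WI. Folds were taken on FPKM + 1, which understates the difference of a gene with low FPKM, over the 10792 genes that reached an FPKM of 1 in at least 1 sample. All 10 genes passed this filter, 8 of them in all 3 samples and 2 in 2 samples.

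Counted over all 10792 genes, 1.85% differed at least 2-fold between WI and sham in either direction, beside 0 of the 10. For 0.676% of all genes, and for 0 of the 10, the 95% bounds of the WI and sham samples did not overlap. Between IR and WI, 5.78% of all genes were at least 2-fold higher and 1.43% at least 2-fold lower in the IR sample, beside 5 higher and 0 lower of the 10. The bounds lay apart, with the IR sample higher, for 3.22% of all genes and for 2 of the 10, Pfkfb3 and Slc2a1. Between IR and sham, 5.35% of all genes were at least 2-fold higher and 2.15% lower, beside 4 higher (Hif1a, Ankrd37, Pfkfb3 and Slc2a1) and 0 lower of the 10. In that comparison the bounds lay apart with IR higher for 2.70% of all genes and for 3 of the 10, Ankrd37, Pfkfb3 and Slc2a1. The comparisons share libraries and are not independent of each other. The median difference of the 10 genes on the scale of log2(FPKM + 1) was -0.12 for WI minus sham, 0.73 for IR minus WI and 0.70 for IR minus sham, beside medians over all genes of 0.02, 0.03 and 0.05.

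**Figure D1:**
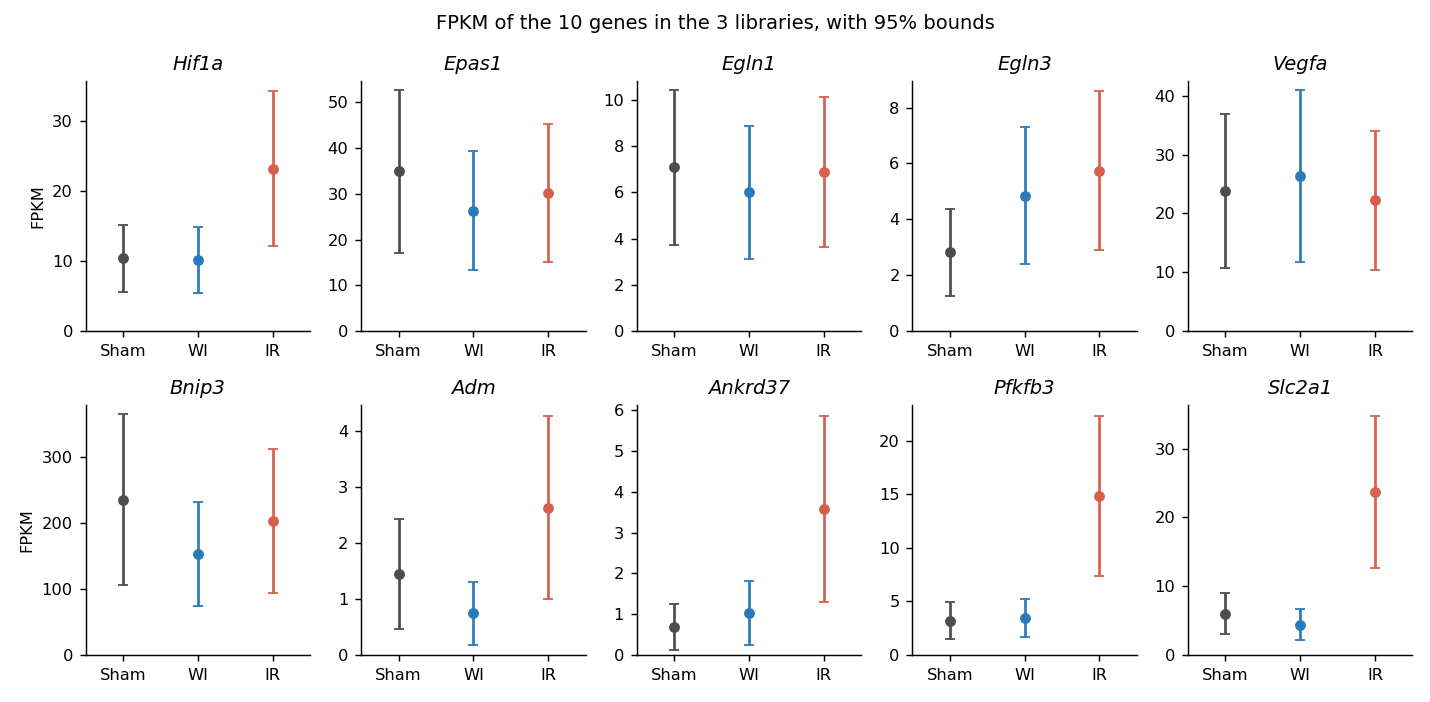
FPKM (vertical axes, each from 0) of the 10 genes in the sham, WI and IR libraries, 1 library each, with the deposited 95% bounds as bars. Slc2a1 and Pfkfb3 have IR bounds that lie above those of both other libraries, and the bounds of Epas1, Egln1, Vegfa and Bnip3 overlap throughout.

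The counts for the IR sample depend on how the libraries are scaled. Summed over genes, FPKM came to 475754 for sham, 487912 for WI and 712423 for IR, and the 10 genes with the highest FPKM held 14.9%, 14.8% and 20.8% of it. The status HIDATA, under which Alb was listed at 0, was given to 1 gene in the sham, 1 in the WI and 7 in the IR library. The sums, these shares and the TPM scaling may therefore rest on unlike sets of genes. When each library was rescaled to a common sum (TPM), the median difference of all genes between IR and WI moved to -0.40 on the log2 scale, and the calls over all genes changed from 624 higher and 154 lower to 309 higher and 753 lower. Between IR and sham they changed from 577 higher and 232 lower to 258 higher and 983 lower. Only Pfkfb3 and Slc2a1 of the 10 genes then stayed at least 2-fold higher in the IR than in the WI sample. Measured against that shifted median, the IR minus WI differences were 2.07 for Slc2a1, 1.72 for Pfkfb3, 1.16 for Ankrd37 and 1.08 for Adm. That of Hif1a was 0.997, just short of 2-fold. Between IR and sham, Hif1a dropped below 2-fold in TPM, and Ankrd37, Pfkfb3 and Slc2a1 did not. Scaling by the median ratio of all genes left the 5 genes above 2-fold between IR and WI.

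Slc2a1 encodes GLUT1, a transporter that lets glucose into the cell along its gradient and that hepatocytes hold at a low level. The gene lies on chromosome 4 of mm10 from 119108745 to 119137329. It was measured at 6.01 FPKM in sham liver (3.04 to 8.99), 4.40 FPKM in WI liver (2.14 to 6.67) and 23.7 FPKM in IR liver (12.7 to 34.7). The IR value stood clear of both others, while the sham and WI bounds overlapped. On the scale of log2(FPKM + 1), IR liver exceeded WI liver by 2.19, with an interval of 1.31 to 3.08 built from the deposited bounds, and 1.26% of all genes had a larger one. IR minus sham was 1.82 (0.93 to 2.70), and WI minus sham was -0.38 (-1.24 to 0.48). Among the 10 genes Slc2a1 stood sixth in FPKM in the sham sample, and it held rank 3 in the IR sample.

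Pfkfb3 encodes an enzyme that makes fructose 2,6-bisphosphate, the activator of the committed step of glycolysis. The gene lies on chromosome 2 from 11471431 to 11553929 and had 2 start site identifiers in the files. It was measured at 3.21 FPKM in sham liver (1.501 to 4.93), 3.44 FPKM in WI liver (1.68 to 5.20) and 14.9 FPKM in IR liver (7.36 to 22.3). The sham and WI samples were nearly level and the IR bounds lay above both. IR minus WI was 1.84 on the log2 scale (0.95 to 2.73), a difference exceeded by 1.96% of all genes, and IR minus sham was 1.91 (1.01 to 2.81). Pfkfb1, the related enzyme of resting liver, followed another order, at 20.4 FPKM in sham liver (10.9 to 29.8), 12.9 FPKM in WI liver (6.79 to 19.0) and 9.95 FPKM in IR liver (5.12 to 14.8).

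Ankrd37, a HIF target that encodes a small ankyrin repeat protein, lies on chromosome 8 from 45996908 to 45999850. It was measured at 0.688 FPKM in sham liver (0.117 to 1.26), 1.03 FPKM in WI liver (0.235 to 1.82) and 3.58 FPKM in IR liver (1.31 to 5.85). The IR bounds lay above those of sham and overlapped those of WI. In TPM and with scaling by the median ratio, the IR and sham bounds overlapped. IR minus sham was 1.44 on the log2 scale (0.57 to 2.31) and IR minus WI was 1.18 (0.26 to 2.09). With a pseudocount of 0.01 in place of 1, IR minus sham was 2.36. The gene Ufsp2 ends 48 bases from Ankrd37, and whether the libraries kept strand is not given in the sources used here, so fragments at the boundary could be assigned to either gene. Ufsp2 measured 20.6 FPKM in sham liver, 24.1 FPKM in WI liver and 21.4 FPKM in IR liver.

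Adm encodes adrenomedullin, a peptide that widens vessels and tightens the endothelial barrier. It lies on chromosome 7 from 110627669 to 110629819. It was measured at 1.44 FPKM in sham liver (0.457 to 2.43), 0.742 FPKM in WI liver (0.181 to 1.30) and 2.64 FPKM in IR liver (0.997 to 4.27). The WI sample was lowest and the IR sample highest, and all bounds overlapped. IR minus WI was 1.06 on the log2 scale (0.26 to 1.86), while IR minus sham was 0.57 (-0.30 to 1.45) and did not reach 2-fold.

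The promoters of the genes that were higher in the IR sample are shown with that of Bnip3, which was not, because all of them carry the core of the hypoxia response element. The core was searched as ACGTG and as GCGTG on both strands, over windows from 250 bases before to 50 bases after the start site as RefSeq gives them for GRCm38.p6, the assembly behind mm10. Each sequence reads along the strand of its gene. Matches are in capitals, and a match on the opposite strand reads CACGT or CACGC. Where both strands match at CACGTG, the matches overlap and count separately.
Slc2a1, chr4:119108495-119108794, plus strand: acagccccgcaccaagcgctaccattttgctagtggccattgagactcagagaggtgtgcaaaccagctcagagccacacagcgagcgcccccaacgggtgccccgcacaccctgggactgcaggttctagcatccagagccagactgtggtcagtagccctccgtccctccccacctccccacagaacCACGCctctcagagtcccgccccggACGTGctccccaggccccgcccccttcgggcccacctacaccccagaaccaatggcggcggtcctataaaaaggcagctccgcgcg
Pfkfb3, start 1, chr2:11553880-11554179, minus strand: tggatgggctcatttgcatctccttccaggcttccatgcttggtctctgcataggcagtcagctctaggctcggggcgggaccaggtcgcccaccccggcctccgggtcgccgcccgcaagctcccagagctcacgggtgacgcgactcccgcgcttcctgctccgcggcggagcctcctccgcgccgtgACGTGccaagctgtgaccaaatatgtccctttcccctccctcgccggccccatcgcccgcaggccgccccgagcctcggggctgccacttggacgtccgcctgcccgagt
Pfkfb3, start 2, chr2:11502041-11502340, minus strand: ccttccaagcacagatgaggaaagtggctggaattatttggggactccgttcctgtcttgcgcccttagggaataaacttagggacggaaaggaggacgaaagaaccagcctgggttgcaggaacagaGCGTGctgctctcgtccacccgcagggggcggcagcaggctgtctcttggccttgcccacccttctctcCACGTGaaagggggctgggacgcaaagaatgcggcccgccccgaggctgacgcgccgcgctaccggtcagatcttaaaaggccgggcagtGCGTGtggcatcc
Ankrd37, chr8:45999801-46000100, minus strand: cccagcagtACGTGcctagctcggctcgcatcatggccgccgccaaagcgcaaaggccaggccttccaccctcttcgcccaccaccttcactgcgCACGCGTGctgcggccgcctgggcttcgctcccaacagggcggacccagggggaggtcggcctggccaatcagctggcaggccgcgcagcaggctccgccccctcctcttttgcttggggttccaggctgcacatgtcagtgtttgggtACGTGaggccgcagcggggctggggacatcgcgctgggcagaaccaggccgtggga
Hif1a, chr12:73907617-73907916, plus strand: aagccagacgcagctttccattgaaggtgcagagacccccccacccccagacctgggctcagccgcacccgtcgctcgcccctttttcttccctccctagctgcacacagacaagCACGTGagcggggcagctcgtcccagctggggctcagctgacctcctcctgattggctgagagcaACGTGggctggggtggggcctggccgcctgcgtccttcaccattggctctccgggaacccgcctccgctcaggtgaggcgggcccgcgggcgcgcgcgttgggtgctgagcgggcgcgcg
Adm, chr7:110627407-110627706, plus strand: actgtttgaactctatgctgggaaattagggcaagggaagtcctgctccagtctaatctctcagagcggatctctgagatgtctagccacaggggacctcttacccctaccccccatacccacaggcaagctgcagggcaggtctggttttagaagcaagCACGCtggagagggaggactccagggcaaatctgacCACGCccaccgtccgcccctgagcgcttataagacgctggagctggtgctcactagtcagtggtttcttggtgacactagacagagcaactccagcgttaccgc
Bnip3, chr7:138909457-138909756, minus strand: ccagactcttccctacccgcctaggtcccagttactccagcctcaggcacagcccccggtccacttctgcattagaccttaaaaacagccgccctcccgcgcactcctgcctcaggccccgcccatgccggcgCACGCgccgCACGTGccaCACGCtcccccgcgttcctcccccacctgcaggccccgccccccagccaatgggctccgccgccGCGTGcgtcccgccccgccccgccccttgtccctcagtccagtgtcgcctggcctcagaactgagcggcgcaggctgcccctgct
The table held 11 promoters of 9 of the 10 genes, with no entry for Epas1. Of the 11, 10 held at least 1 match, 9 held ACGTG and 7 held GCGTG. Over all 32851 promoters of the table, 43.8% held a match of either form, 19.6% ACGTG and 32.4% GCGTG. Among the 14579 promoters with a GC content in the range of the 11 (54.7% to 86%), 63.4% held a match, 25.2% ACGTG and 52.7% GCGTG. Bnip3 had the most matches, 5, and differed by less than 2-fold in every comparison. Slc2a1 had 2, starting 61 and 36 bases before the start site, Pfkfb3 had 1 at its start 1 and 4 at its start 2, and Ankrd37 had 4, one of them 6 bases before the start site. Adm held 2 matches, both of the form GCGTG. Hif1a had 3, and its pair at CACGTG starts 135 bases before the start site. The windows of start 2 of Vegfa and of Pfkfb3 lie inside the gene, downstream of start 1. Start 1 of Vegfa held 0 of these letters in this window and start 2 held 2. Egln1 had 2 and Egln3 had 1. A match describes letters of the reference and not binding.

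**Figure D2:**
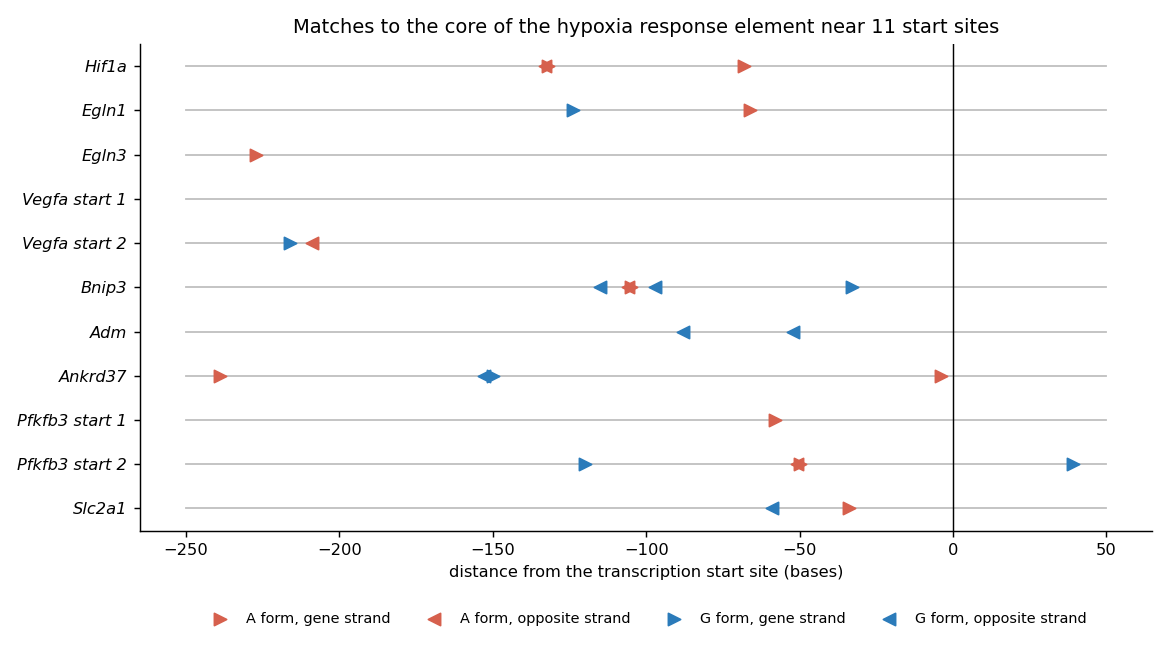
Positions of the motif matches (horizontal axis, bases from the transcription start site) in the 11 RefSeq promoters of 9 genes, 1 line per promoter. Red marks ACGTG (A form) and blue GCGTG (G form), arrowheads point right for the gene strand and left for the opposite strand, and overlapping red arrowheads are CACGTG. Only Vegfa start 1 is without a match.

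Hif1a and Epas1 encode the alpha subunits of HIF, of which the first is made in most cells and the second is prominent in endothelial cells and hepatocytes. Hif1a lies on chromosome 12 from 73907867 to 73947530, and it was measured at 10.4 FPKM in sham liver (5.57 to 15.2), 10.1 FPKM in WI liver (5.43 to 14.8) and 23.2 FPKM in IR liver (12.1 to 34.2). The sham and WI samples were level, and the lower bound of the IR sample reached into the bounds of both. IR minus WI was 1.12 on the log2 scale (0.22 to 2.02) and IR minus sham was 1.09 (0.19 to 1.98). Epas1, on chromosome 17 from 86753864 to 86833410, measured 34.9 FPKM in sham liver (17.1 to 52.7), 26.3 FPKM in WI liver (13.3 to 39.3) and 30.2 FPKM in IR liver (15.0 to 45.3). Its values overlapped in all 3 samples, and IR minus WI was 0.19 (-0.79 to 1.17). FPKM is set per length, so the 2 genes can be compared within a library. Epas1 exceeded Hif1a 3.36 times in the sham sample with bounds apart, 2.60 times in the WI sample and 1.30 times in the IR sample with bounds that overlapped.

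Egln1 and Egln3 encode prolyl hydroxylases, the first the main sensor in most tissues and the second itself a HIF target that feeds back on the alpha subunits. Egln1, on chromosome 8 from 124908587 to 124949254, measured 7.08 FPKM in sham liver (3.73 to 10.4), 6.00 FPKM in WI liver (3.13 to 8.87) and 6.88 FPKM in IR liver (3.63 to 10.1). It had the narrowest range of the 10 genes, 0.21 on the log2 scale. Egln3, on chromosome 12 from 54178981 to 54203874, measured 2.82 FPKM in sham liver (1.27 to 4.38), 4.85 FPKM in WI liver (2.40 to 7.29) and 5.75 FPKM in IR liver (2.91 to 8.58). Its WI value was above sham by 0.61 on the log2 scale (-0.23 to 1.46), the highest WI minus sham difference among the 10 genes, and 2.79% of all genes had a larger one. IR minus sham was 0.82 (-0.02 to 1.66). The bounds of the 3 samples overlapped, and neither difference reached 2-fold in FPKM + 1. With pseudocounts of 0.1 and 0.01, IR was at least 2-fold above sham for Egln3.

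Vegfa, the growth factor that drives endothelial growth and permeability, lies on chromosome 17 from 46016993 to 46032377. It was measured at 23.8 FPKM in sham liver (10.7 to 36.8), 26.4 FPKM in WI liver (11.7 to 41.0) and 22.2 FPKM in IR liver (10.4 to 34.1). The WI sample was highest and the IR sample lowest, the reverse of Slc2a1 and Adm, with IR minus WI at -0.23 on the log2 scale (-1.30 to 0.83). Bnip3, which encodes a mitochondrial protein of mitophagy and cell death, lies on chromosome 7 from 138890836 to 138909506. It was measured at 235 FPKM in sham liver (106 to 364), 153 FPKM in WI liver (74.1 to 232) and 202 FPKM in IR liver (93.5 to 311). WI minus sham was -0.62 (-1.70 to 0.46), and the bounds overlapped throughout. The interval of Bnip3 did not exclude a 2-fold lower level in the WI liver, and that of Vegfa, 0.14 for WI minus sham (-0.94 to 1.23), did not exclude a 2-fold higher one.

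**Figure D3:**
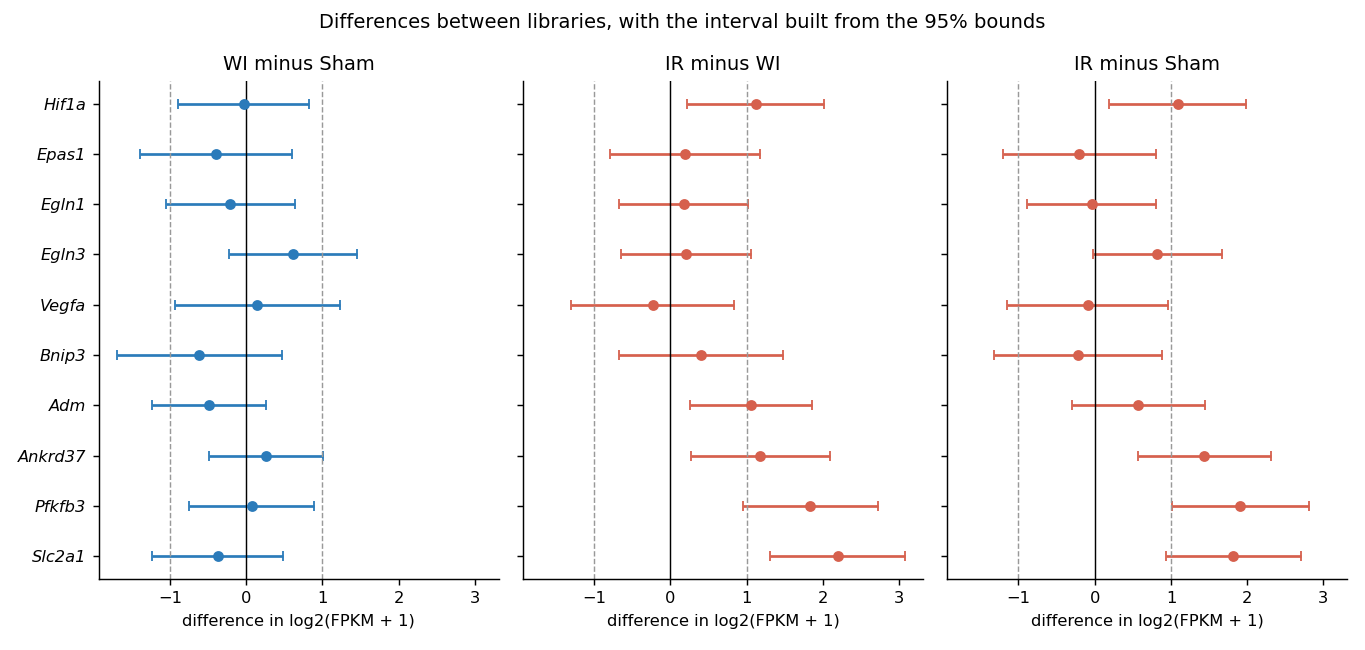
Differences in log2(FPKM + 1) (horizontal axes) for the 10 genes in the 3 comparisons, 1 library per group, with intervals built from the deposited 95% bounds and dashed lines at 2-fold. All 10 intervals cover 0 for WI minus sham, and those of Hif1a, Adm, Ankrd37, Pfkfb3 and Slc2a1 lie above 0 for IR minus WI.

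Within a library the 10 genes covered a wide range of levels. Bnip3 was the highest in each of the 3 libraries, at or above 95.3% of all genes that passed the filter, and it was the only gene whose bounds lay apart from those of the next in order. The other 8 pairs of neighbours in the order of FPKM overlapped in every library. The lowest was Ankrd37 in the sham sample and Adm in the WI and IR samples. The highest FPKM exceeded the lowest 342 times in the sham sample, 206 times in the WI sample and 76.8 times in the IR sample. The IR sample was the highest of the 3 libraries for 6 of the 10 genes and the WI sample the lowest for 6. Half-widths of the bounds ran from 46.3% of the FPKM for the best determined to 83.0% for Ankrd37 in the sham sample.

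Other genes of the pathway were taken from 5 lists of 81 genes, of which 65 passed the filter. Between IR and WI, 12 of the 65 were at least 2-fold higher in the IR sample and 1 lower, beside 5.78% and 1.43% of all genes. The bounds lay apart, with IR higher, for 9 of them, beside 3.22% of all genes. Between WI and sham, 0 were higher and 2 lower, beside 0.751% and 1.10%. Between IR and sham 8 were higher and 2 lower, beside 5.35% and 2.15%, so that the share of lower genes was near that of all genes. Of the 65 genes, 6 reached an FPKM of 1 in the IR sample alone, among them Slc16a3, Slc2a3, Bhlhe41 and Angpt2, and so passed the filter only through the sample in which they were high. Without such genes, 8 of 59 were at least 2-fold higher in IR than in WI, beside 4.71% of the 10499 genes left, and 5 had bounds apart, beside 2.21%. Between IR and sham, 5 of the 59 were then higher, beside 4.37%, and 2 had bounds apart with IR higher, beside 1.81%. The lists were read as counts only and were not tested as sets. They were chosen with earlier results of these data known, so a count above the share of all genes cannot serve as support. Their counts were not taken again in TPM, which gives the IR library a factor of 0.668 relative to sham. Calls of a higher IR value that lie near 2-fold may therefore depend on the scaling.

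Among 11 measured subunits, partners and sensors of HIF, 1 differed 2-fold, Cited2. It was higher in IR than in WI and in sham, beside 5.78% and 5.35% of all genes. Cited2, which encodes a HIF target protein that competes with HIF for its coactivators, measured 6.09 FPKM in sham liver (2.91 to 9.27), 6.34 FPKM in WI liver (3.07 to 9.60) and 15.0 FPKM in IR liver (7.97 to 22.0). The median difference IR minus WI of the 11 was 0.21 on the log2 scale. Of 17 glycolysis and lactate genes that are HIF targets, 4 were at least 2-fold higher in the IR than in the WI sample and 0 lower. Over all genes these shares were 5.78% and 1.43%. The 4 higher genes were Slc16a3, the lactate exporter gene, by 1.41 on the log2 scale, and the aldolase gene Aldoa by 1.22. The others were the pyruvate kinase gene Pkm by 1.09 and Slc2a3, a second glucose transporter gene, by 1.08. Slc16a3 measured 0.259 FPKM in sham liver (0.0395 to 0.478), 0.314 FPKM in WI liver (0.0609 to 0.567) and 2.48 FPKM in IR liver (0.919 to 4.05), with IR bounds apart from both. Slc16a3 and Slc2a3 reached an FPKM of 1 in the IR sample alone, so that passing the filter favoured a higher IR value. Pdk1, also in this list, fell just short of 2-fold lower in FPKM + 1, with IR minus WI at -0.99 (-1.91 to -0.08). It measured 25.7 FPKM in sham liver (13.2 to 38.1), 26.2 FPKM in WI liver (13.5 to 39.0) and 12.7 FPKM in IR liver (6.77 to 18.6), with bounds that overlapped. Gapdh, the reference gene of the study's quantitative PCR, belongs to this list and measured 850.2 FPKM in sham liver (287 to 1413), 1231 FPKM in WI liver (344 to 2118) and 1696 FPKM in IR liver (378 to 3015).

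Of 15 other intracellular targets, 3 were at least 2-fold higher in the IR than in the WI sample, beside 5.78% of all genes. They were Ddit4, Ndrg1 and Bhlhe41, all with bounds apart, beside 3.22% of all genes. Ddit4, which encodes an inhibitor of mTOR signaling, measured 26.9 FPKM in sham liver (14.4 to 39.3), 3.22 FPKM in WI liver (1.34 to 5.09) and 18.8 FPKM in IR liver (10.1 to 27.6). Of the 65 genes of the lists that passed the filter, it alone had WI bounds below those of sham, beside 0.482% of all genes, and its difference WI minus sham was -2.72 on the log2 scale. Ndrg1, a hypoxia-responsive gene of cell differentiation, was 1.71 higher in the IR than in the WI sample. Bhlhe41, a transcriptional repressor gene, was 1.10 higher and reached an FPKM of 1 in the IR sample alone. Bnip3l, the nearest relative of Bnip3, measured 37.4 FPKM in sham liver, 27.6 FPKM in WI liver and 24.5 FPKM in IR liver, and Bnip3 exceeded it between 5.54 and 8.26 times with bounds apart.

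Of 13 secreted and receptor targets that passed the filter, 4 were at least 2-fold higher in the IR than in the WI sample. All 4 had bounds apart. Over all genes these shares were 5.78% and 3.22%. Cxcl12, a chemokine gene, was lower by 1.12 on the log2 scale, with bounds that overlapped. Among the 4 higher genes, Hmox1, the heme oxygenase gene, was 3.88 higher, Angptl4, the gene of a lipoprotein lipase inhibitor, 2.06 higher and Angpt2, the gene of a vessel-destabilising ligand, 1.58 higher. Angpt2 reached an FPKM of 1 in the IR sample alone. Epo, the erythropoietin gene, was listed at 0 in all 3 samples. Igfbp1, which encodes a binding protein of insulin-like growth factors, was the other gene of the lists that was 2-fold lower in WI than in sham, by -1.32, with bounds that overlapped. Of the 9 receptor genes of Vegfa and Adm, 0 differed 2-fold between IR and WI, beside 5.78% of all genes higher and 1.43% lower. Between IR and sham 2 were lower, beside 2.15% of all genes, both with bounds that overlapped. These were Kdr, the main VEGF receptor gene of endothelium, at 10.9 FPKM in sham liver (5.83 to 16.0), 9.45 FPKM in WI liver (5.07 to 13.8) and 4.80 FPKM in IR liver (2.56 to 7.03), and Ramp2, the partner of the adrenomedullin receptor, at 13.2 FPKM in sham liver (6.24 to 20.2), 9.64 FPKM in WI liver (4.31 to 15.0) and 5.21 FPKM in IR liver (2.01 to 8.41). In bulk tissue, fewer cells of a type and less RNA per cell cannot be told apart.

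**Figure D4:**
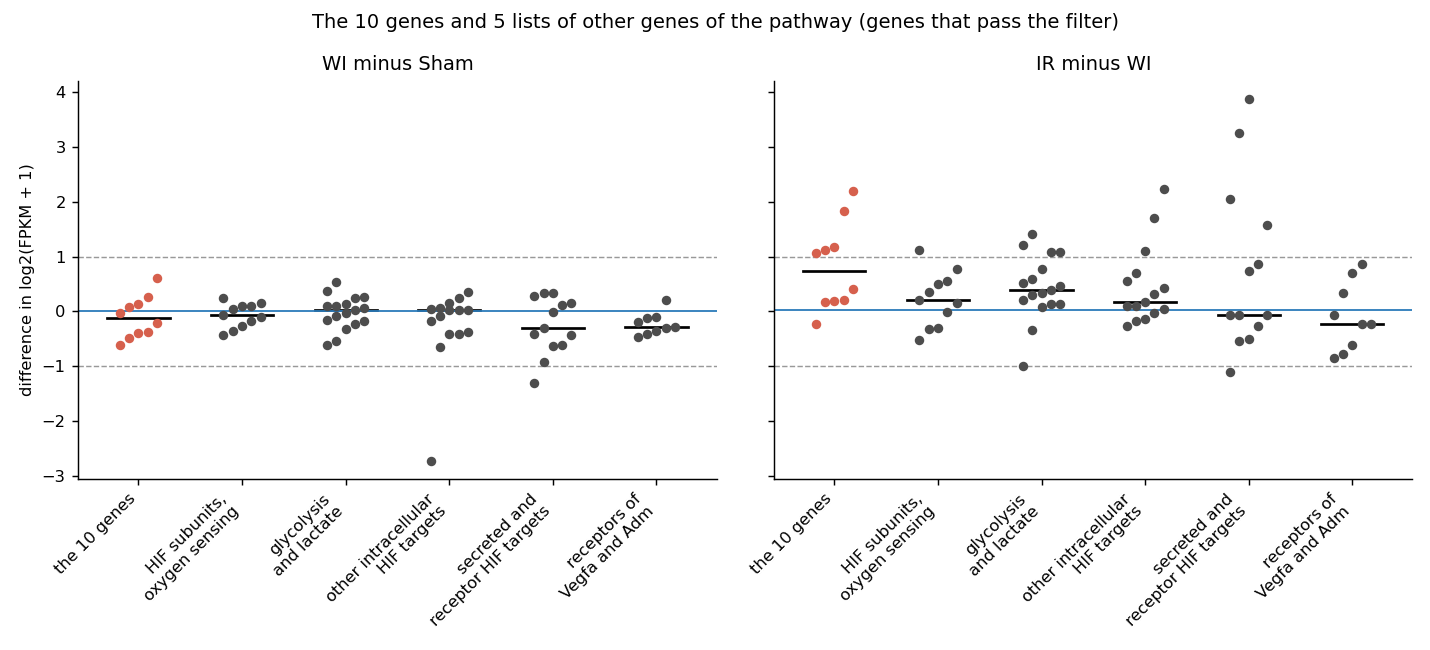
Differences in log2(FPKM + 1) (vertical axis) for the 10 genes (red) and the genes of 5 pathway lists that passed the filter (grey), with short black lines at each median, a blue line at the median of all genes and dashed lines at 2-fold. In WI minus sham, 2 genes of the lists lie beyond the lower dashed line, and in IR minus WI 5 of the 10 genes and 12 of the lists lie above the upper one.

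Markers of other cell types also differed between the libraries. Of 6 neutrophil markers 5 were in the files, and all 5 were at least 2-fold higher in the IR than in both other samples with bounds apart. Over all genes, 5.78% were at least 2-fold higher in IR than in WI and 5.35% than in sham. Bounds lay apart with IR higher for 3.22% and 2.70%. Cxcr2, among the 5, reached an FPKM of 1 in the IR sample alone, and so passed the filter only through that sample. The summed FPKM of the 5 was 25.3 for sham, 19.3 for WI and 460.2 for IR, and 0 of them were listed at 0. Of 4 erythroid markers, 3 passed the filter and were 2-fold higher in the IR than in both other samples, beside the same shares of all genes. Bounds lay apart for 2 of these 3 between IR and WI and for 1 between IR and sham. The summed FPKM of the 4 was 419 for sham, 395 for WI and 1185 for IR. The part of these cells in the higher Slc2a1, Pfkfb3, Hif1a and Ankrd37 of the IR sample was not tested. The 6 Kupffer cell markers, which mark the resident macrophages of the liver, summed to 442 for sham, 221 for WI and 138 for IR. Of them, 2 were at least 2-fold lower in WI than in sham, beside 1.10% of all genes, with bounds that overlapped. Between IR and sham 5 were at least 2-fold lower in IR, beside 2.15% of all genes. The other, Marco, was higher in IR than in sham by less than 2-fold. It measured 20.9 FPKM in sham liver, 12.6 FPKM in WI liver and 25.3 FPKM in IR liver. The 6 endothelial markers summed to 123, 85.8 and 109 in the same order, with 1 of them, Lyve1, at least 2-fold higher and 1, Ptprb, at least 2-fold lower in IR than in sham. Over all genes these shares were 5.35% and 2.15%. By less than 2-fold, Clec4g, Stab2 and Pecam1 were lower in IR than in sham and Cdh5 was higher. Their median difference IR minus sham was -0.46 on the log2 scale. Lyve1 measured 11.2 FPKM in sham liver, 2.73 in WI liver and 33.4 in IR liver. The part of endothelial cells in the lower Kdr and Ramp2 was not tested.

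**Figure D5:**
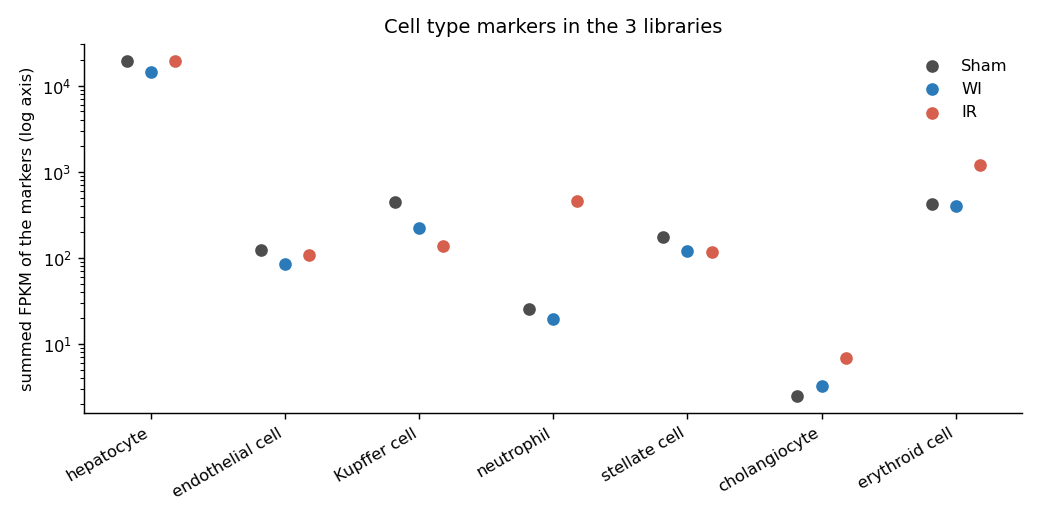
Summed FPKM (vertical log axis) of the markers of 7 cell types in the sham, WI and IR libraries, 1 library each. Neutrophil markers stand at 460.2 in the IR sample against 25.3 and 19.3, erythroid markers at 1185 against 419 and 395, and Kupffer cell markers are highest in the sham sample at 442.

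The genes nearest to the widest-ranging members were found by the Euclidean distance between pairs of differences (WI minus sham, IR minus WI) over the 3 samples. The 3 nearest to Slc2a1 were Gp49a at a distance of 0.04, Srgn at 0.10 and Ets2 at 0.14. Srgn, a proteoglycan gene of blood cell granules, measured 23.3 FPKM in sham liver (12.04 to 34.6), 16.9 FPKM in WI liver (8.39 to 25.5) and 85.2 FPKM in IR liver (45.5 to 125). For Pfkfb3 they were the cytokine genes Osm and Tnfsf14 and the gene Ifitm6, all within 0.04. Osm and Tnfsf14 reached an FPKM of 1 in the IR sample alone, and so passed the filter only through the sample in which they were high. At such low FPKM the added 1 narrows a difference, so their small distance does not mean a ratio of FPKM like that of Pfkfb3. Osm measured 0.0199 FPKM in sham liver (0 to 0.0604), 0.0704 FPKM in WI liver (0 to 0.152) and 2.82 FPKM in IR liver (1.20 to 4.44). For Ankrd37 they were Atf4, a transcription factor gene of the integrated stress response, Relb, an NF-kB subunit gene, and Gm16062, all within 0.04. Atf4 measured 35.6 FPKM in sham liver (19.1 to 52.1), 42.6 FPKM in WI liver (22.7 to 62.4) and 96.4 FPKM in IR liver (48.6 to 144). The lower bound of Gm16062 was 0 in all 3 samples. With 3 libraries such likeness is common: 86 genes lay within a distance of 0.5 of Slc2a1, 140 of Pfkfb3 and 405 of Ankrd37.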

How the data were processed

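Liver mRNA was measured in 3 libraries, 1 each for sham, WI and IR. The authors mapped read pairs to mm10 with TopHat2 2.0.9 and computed expression per gene as FPKM, and they deposited each FPKM with its 95% bounds and a status. The program behind these columns is not given in the sources used here. The processing notes list Cufflinks 2.0.2, and the bound and status columns are named as in its tools. The files hold no counts. Starts in the files count from 0, since adding 1 gave the RefSeq start for 10558 of 21429 matched symbols and the written start did so for 673, and positions above count from 1.

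Differences were taken on log2(FPKM + 1) over genes that reached 1 FPKM in any of the libraries, with no test. Their intervals combine the half-widths of both deposited bounds, each divided by FPKM + 1, as the root of the sum of squares. A gene was called when FPKM + 1 differed at least 2-fold, or when its bounds did not overlap. All 10 members were named. From each list, genes that differed 2-fold in any comparison were named, at most 5 in order of size, and for the 3 members of widest range the 3 nearest genes. Pfkfb1, Pdk1, Bnip3l, Gapdh, Epo, Cxcl12, Ufsp2, Cxcr2, Marco and the 6 endothelial markers were named after their values were seen. Some genes of the lists were counted but are not reported here by name. Members and lists were chosen with earlier results of these data known. The alternatives were pseudocounts of 0.1 and 0.01, no filter, FPKM of at least 1 in every sample, TPM, the median ratio, folds of 1.5 and 4, and an interval of the log2 ratio that excludes 0. The calculations were tested on simulated data. Python 3.11.15, numpy 2.4.6, pandas 2.3.3 and matplotlib 3.10.9 were used.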

Additional observations from a re-analysis of the deposited data

How the results depend on the processing

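No paired analysis was possible because each group had 1 library, and no library could be left out of a group. Of the 10 genes, 5 were at least 2-fold higher in IR than in WI as reported, 3 with an FPKM of at least 1 in every sample (which leaves out Adm and Ankrd37, so that they have no value there), 2 in TPM (Pfkfb3 and Slc2a1) and 1 at 4-fold (Slc2a1). Bounds apart between IR and WI were found for 2 genes, for 1 in TPM (Slc2a1), and for 5 when the interval of the log2 ratio had to exclude 0. Between IR and sham the count of 4 fell to 0 at 4-fold. The 3 genes with bounds apart fell to 0 in TPM and to 2 with the median ratio (Pfkfb3 and Slc2a1). At 1.5-fold, 2 genes were called between WI and sham, Egln3 higher and Bnip3 lower. Leaving out pathway genes that reached an FPKM of 1 in IR alone, an alternative chosen after seeing the data, took those higher in IR than in sham from 8 to 5, and those with bounds apart from 9 to 5 between IR and WI and from 5 to 2 between IR and sham. TPM gives the IR library a factor of 0.668 relative to sham. In TPM, 5 of the 10 genes had an IR value above WI, against 9 as reported, and Epas1, Egln1, Egln3 and Bnip3 passed to below WI. Over 120 values of single genes under the other pseudocounts and scalings, 119 moved by less than the half-width of their interval. The other was Ankrd37 between IR and sham at a pseudocount of 0.01 (2.36). The scalings shift a value by less than these half-widths, so no scaled value could count as moved by this rule. Called differences changed sign in 0 cases, but neither a pseudocount nor these scalings could have changed the sign of one. Over all genes, folds of 1.5 and 4 gave 1333 and 175 genes higher and 799 and 19 lower in IR than in WI (624 and 154 as reported), 1548 and 141 higher and 1024 and 25 lower than in sham (577 and 232), and 339 and 7 higher and 461 and 17 lower in WI than in sham (81 and 119). With a pseudocount of 0.01 these were 890 and 441, 834 and 671, and 163 and 284, and with 0.1 they were 854 and 385, 803 and 626, and 135 and 247. The bounds, about 51.5% of the FPKM on each side for the median gene, limit what can be told apart.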
